A study of Mus musculus with 9 samples.

Results

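The nuclear receptor superfamily was followed here through 46 genes, chosen by name from the gene names in the expression table, where all 46 were found on 72 transcript rows out of 29661. Testis RNA-seq of mice at postnatal day 10 was compared between 3 libraries with the Lin28a knockout label and 3 with the wild type label, all of strain C57BL/6. The knockout titles carry the prefix cKO, and the promoter that drives any Cre was not given in the sources used here, nor is it said whether the libraries came from separate animals. A further 3 samples of the series, from LIN28A CLIP, were not analysed here. The table holds 1 pooled FPKM value (fragments scaled by transcript length and by the number of mapped fragments) per group, in a column labelled case and a column labelled control, so there is no spread between libraries and no SD or n for any value, and the depth is unknown.

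Nuclear receptors are transcription factors that bind DNA through a pair of zinc fingers and, in many members, a small lipid-soluble ligand through a second domain. Steroid receptors act mostly as homodimers, receptors for retinoic acid, thyroid hormone, vitamin D, fatty acids and oxysterols pair with a retinoid X receptor (RXR), and orphan members work with no established ligand. In the testis, NR5A1 drives steroidogenic and Sertoli cell genes, retinoic acid receptors carry the signal for spermatogonia to differentiate and enter meiosis, and thyroid hormone receptor alpha limits the proliferation of immature Sertoli cells.

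Lin28a, which the study targeted, had 23.4 FPKM in the case-labelled column and 8.82 FPKM in the control-labelled column, 2.66-fold higher, and the authors' deposited table gives it q = 0.00191. The targeted gene thus goes against the label, and every direction given here depends on how the columns are named. Markers placed the samples in testis, with Ddx4, the germ cell helicase, at 72.6 and 72.8 FPKM and the liver markers Alb, Apoa1 and Ttr summing to 0.252 FPKM in the case-labelled column and 0.524 FPKM in the control-labelled column. The cell type markers were not evenly matched. Among all genes averaging 1 FPKM or more, 60.8% were higher in the case-labelled column. Of 7 Leydig cell markers all 7 were higher in the case-labelled column, with sums of 332 and 255 FPKM, and so were all 7 peritubular and stroma markers (724 and 613 FPKM) and all 6 endothelial markers (40.4 and 33.3 FPKM). Of 8 germ cell markers 7 were lower, with sums of 558 FPKM in the case-labelled column and 769.5 FPKM in the control-labelled column. The markers were not alike. Ratios ran from 1.27-fold lower for Stra8 to 1.90-fold lower for Tex101, with Sycp3, Sycp1 and Dmc1 between them. Dazl was 1.15-fold lower and Ddx4 nearly level, while Zbtb16, a marker of undifferentiated spermatogonia, was higher at 16.8 and 14.9 FPKM. The sum thus does not describe all germ cells. The 8 Sertoli cell markers summed to 2962 and 2979 FPKM, with 5 higher and 3 lower, and the 7 macrophage and immune markers to 59.99 and 71.7 FPKM. Of the 6 macrophage and immune markers at a mean of 1 FPKM or more 5 were lower, with Lyz2 at 31.9 and 45.6 FPKM, and 1, Cd74, was higher at 6.22 and 2.04 FPKM (p = 0.00524 for its main row, the authors' deposited table). Markers of epididymis and duct summed to 18.6 and 12.1 FPKM, most of it Cst8 (17.6 and 9.65 FPKM), with Crisp1 going the other way at 0.261 and 2.27 FPKM (p = 0.00256, the authors' deposited table) and Lcn5 at 0 in both columns, and the 4 adipose markers to 4.77 and 3.92 FPKM. In all, 0 marker genes had q under 0.05 in that table. At p under 0.05 there were 7, where 1.28% of all rows with a usable p-value passed. The marker lists were chosen with earlier results of these data known, so no excess over that share can be read from the 7. Besides Cd74 and Crisp1, these were the germ cell genes Tex101 (86.99 and 165 FPKM), Dmc1 (14.2 and 24.9 FPKM) and Sycp1 (38.5 and 59.1 FPKM), the Sertoli gene Rhox5 (8.90 and 19.3 FPKM) and the Leydig gene Hsd17b3 (38.7 and 24.6 FPKM), with the case-labelled value given before the control-labelled one. The part of these marker differences in the receptor values was not tested. In whole testis, fewer cells of a type and less RNA per cell cannot be told apart.

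Of the 46 receptor genes, 27 (58.7%) had a mean FPKM of at least 1 over both columns, after FPKM was summed over the rows of a gene, against 54.1% of all 23389 genes. A mean of at least 10 FPKM was reached by 12 receptors (26.1%), against 30.3% of all genes. The receptors together took 0.131% of all FPKM in the case-labelled column and 0.127% in the control-labelled column. Their levels were steeply graded. Thra alone gave 22.4% of the summed receptor FPKM in the case-labelled column and 20.8% in the control-labelled column, and the 5 receptors of highest mean, Thra, Nr5a1, Nr0b1, Nr1d2 and Nr1h2, gave 53.7% and 53.5%. The order of the 46 genes was nearly the same in both columns, with a Spearman correlation of 0.996 across genes, which are not independent replicates.

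No receptor row was called by the authors. Of the 72 rows, 27 had the status OK and so a usable p-value, 37 were marked as not tested and 8 as failed. At a q-value under 0.05, 0 of the 27 rows passed, against 0.0514% of all 13629 rows with status OK, and at an unadjusted p under 0.05 the count was also 0, against 1.28% of all such rows. The smallest p in the authors' deposited table was 0.232, for Pparg, and the median over receptor rows was 0.637, against 0.731 over all rows with status OK. For the program behind this test no name was found in the labels or notes. All differences below are therefore values, not changes that passed a test.

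More receptors were higher than lower in the case-labelled column, as were most genes. Of the 27 genes averaging 1 FPKM or more, 19 were higher there and 8 lower, where 60.8% of all 12664 such genes were higher. After both columns were rescaled by the median ratio over all genes, all genes were evenly divided by construction, and the receptor count was still 19. The median difference in log2(FPKM + 1), case minus control, was 0.12 over the 27 receptors and 0.03 over all genes. The size of the difference regardless of direction had a median of 0.16 for receptors and 0.09 for all genes. Among genes with a mean from 1 to under 10 FPKM, 12 of 15 receptors were higher, against 62.7% of all genes, and at 10 FPKM or more 7 of 12 were higher, against 59.3%. No test of the group was made, and the counts are a description of these columns.

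**Figure D1:**
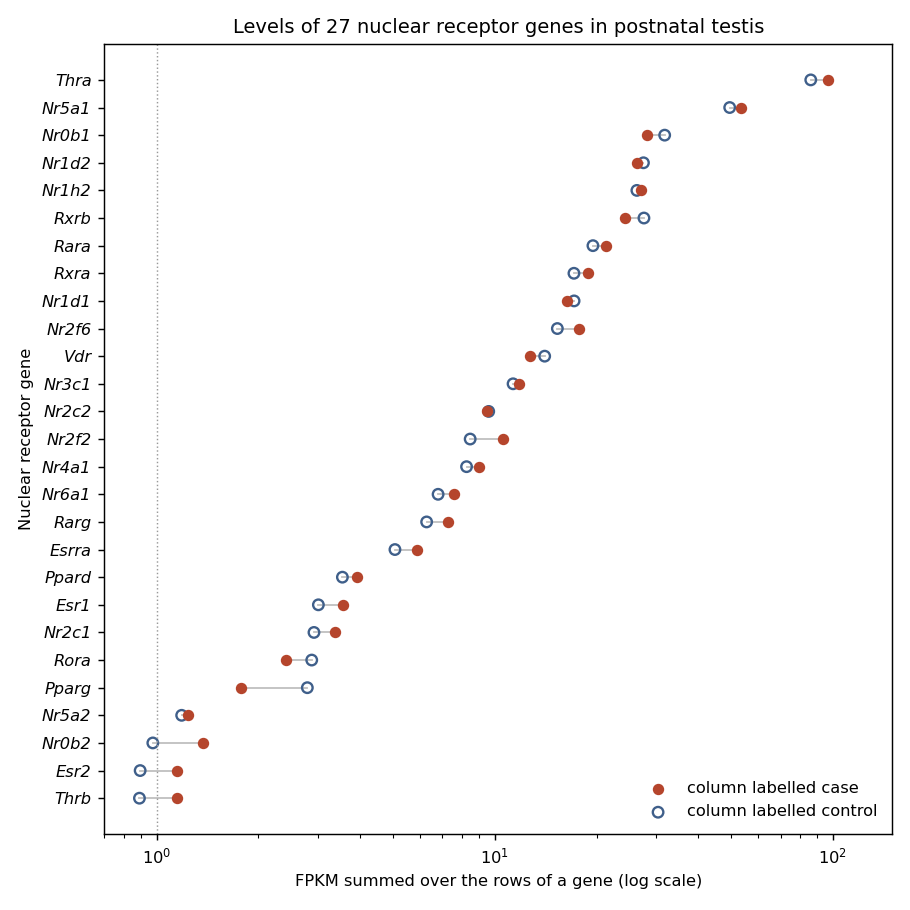
Each row is a nuclear receptor gene with a mean of at least 1 FPKM, ordered by its mean; filled points give the summed FPKM in the case-labelled column, open points that in the control-labelled column, on a log axis, and the dotted line marks 1 FPKM. Levels run from 96.6 FPKM for Thra in the case-labelled column down to near 1 FPKM for Esr2 and Thrb, and the separation within a gene is small beside that range except for Pparg and a few genes near 1 FPKM.

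A ratio of at least 5 to 4 between the columns was seen in 4 of the 27 receptors. Nr0b2, Thrb and Esr2 were higher in the case-labelled column, where 6.46% of all genes passed that ratio upwards, and Pparg was lower, where 4.45% passed it downwards. Pparg had the highest mean of the 4, at 2.28 FPKM. At a mean FPKM of at least 5, 0 receptors passed in either direction, but the share of all genes passing at that level was not computed. Nr2f2, at 1.247-fold, was the nearest receptor inside the limit. A filter on the mean sets which low receptors are described, and just inside it stood Thrb (1.15 and 0.89 FPKM) and Esr2 (1.15 and 0.894 FPKM), with Nr1h3 (0.691 and 0.927 FPKM) and Nr2e1 (0.716 and 0.77 FPKM) just outside, each given as case and then control.

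Among steroid hormone receptors, the glucocorticoid receptor gene Nr3c1 was the most abundant, at 11.8 FPKM in the case-labelled column and 11.3 FPKM in the control-labelled column, 1.04-fold apart (p = 0.808, the authors' deposited table). The mineralocorticoid receptor gene Nr3c2 was at 0.645 and 0.769 FPKM, so that Nr3c1 exceeded it 18.3-fold in the case-labelled column and 14.7-fold in the control-labelled column, on a per-length scale. Esr1, which encodes oestrogen receptor alpha, was at 3.55 FPKM in the case-labelled column and 3.01 FPKM in the control-labelled column (p = 0.536, the authors' deposited table). Esr2, for oestrogen receptor beta, summed to 1.15 and 0.894 FPKM, but its rows went opposite ways, NM_010157 at 0.742 and 0.26 FPKM and NM_207707 at 0.407 and 0.634 FPKM, and neither had a usable p-value. The progesterone receptor gene Pgr was near the floor of the table, at 0.263 and 0.188 FPKM. Of the oestrogen-related receptors, orphan regulators of mitochondrial genes, Esrra was at 5.88 FPKM in the case-labelled column and 5.07 FPKM in the control-labelled column, while Esrrb (0.528 and 0.441 FPKM) and Esrrg (0.174 and 0.244 FPKM) were under 1 FPKM. The Esrra locus of the table also holds Trmt112 on the other strand, at 24.7 and 23.0 FPKM, and it is not stated whether counting used strand, so the Esrra level is uncertain.

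Retinoid receptors held 4 expressed genes, 3 higher and 1 lower in the case-labelled column, where 60.8% of all genes were higher. Rara, the retinoic acid receptor alpha gene, found mainly in Sertoli cells of the mouse testis, was at 21.4 FPKM in the case-labelled column and 19.5 FPKM in the control-labelled column. Rarg, the form found in spermatogonia, was at 7.29 FPKM in the case-labelled column and 6.29 FPKM in the control-labelled column, and Rarb at 0.35 and 0.303 FPKM. The Rara level was thus 2.93 times that of Rarg in the case-labelled column and 3.10 times in the control-labelled column. Of their obligate partners, Rxrb was at 24.3 FPKM in the case-labelled column and 27.6 FPKM in the control-labelled column, Rxra at 18.9 and 17.1 FPKM, and Rxrg at 0.107 and 0.153 FPKM. Summed, the RXR genes stood at 43.3 FPKM in the case-labelled column and 44.9 FPKM in the control-labelled column, and the RAR genes at 29.0 and 26.1 FPKM. The 14 genes of receptors that pair with RXR, from the retinoic acid, thyroid hormone, vitamin D, PPAR, LXR, FXR, PXR and CAR groups, summed to 174 and 161 FPKM, of which Thra was the largest.

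Rara is on chromosome 11 (mm10, 98937696 to 98974942) with 4 rows. Its main row, NM_009024, was lower in the case-labelled column, at 13.9 against 14.3 FPKM (p = 0.886, the authors' deposited table), and NM_001176528 was higher, at 6.90 against 5.03 FPKM (p = 0.258, the authors' deposited table). NM_001177302 was also higher, at 0.628 against 0.21 FPKM, so the direction of the Rara sum comes from the lesser rows. NM_001176528 made up 32.3% of Rara FPKM in the case-labelled column and 25.8% in the control-labelled column, and NM_001177303 was listed at 0 in both. The 4 rows of Rxrb spanned 3.54 to 7.43 FPKM in the case-labelled column and 4.84 to 9.50 FPKM in the control-labelled column. Of these, 3 were lower in the case-labelled column and 1, NM_001205215, was higher at 6.78 against 6.47 FPKM. All rows of Rxrb, Rarg and Nr2f2 had the status FAIL, so no p-value can be read for these genes. In all, 7 of the 19 receptors with several rows had rows pointing in opposite directions, the others being Esrrg, Nr1h3, Nr1i2 and Ppara, all with a mean under 1 FPKM. Nr1h3 had its rows at 0.691 and 0.596 FPKM and at 0 and 0.331 FPKM, and Ppara at 0.427 and 0.445 FPKM and at 0.419 and 0.112 FPKM, case before control. The rows of Nr1i2 were at 0 and 0.0924 FPKM and at 0.0739 and 0 FPKM, and the opposed second row of Esrrg was at 1.60e-05 and 5.68e-06 FPKM.

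**Figure D2:**
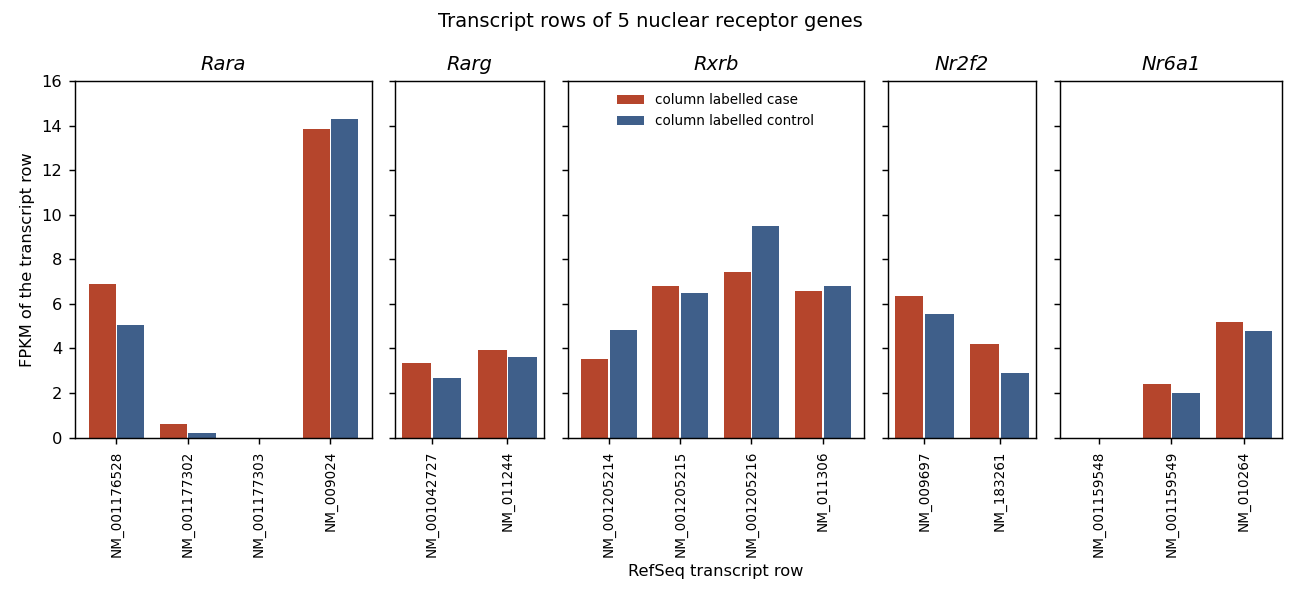
Bars give FPKM of each RefSeq transcript row of Rara, Rarg, Rxrb, Nr2f2 and Nr6a1, with the case-labelled column left of the control-labelled column; each bar is 1 pooled value with no error. In Rara the main row is lower and NM_001176528 higher in the case-labelled column, and in Rxrb 3 of 4 rows are lower.

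Thra, which encodes thyroid hormone receptor alpha (NM_178060; chromosome 11, 98741873 to 98765111), was the most abundant receptor gene, at 96.6 FPKM in the case-labelled column and 86.0 FPKM in the control-labelled column. It stood at percentile 97.9 of all genes in the case-labelled column and 97.5 in the control-labelled column, and the 1.12-fold difference had p = 0.489 in the authors' deposited table. Thrb, for the beta receptor, was at 1.15 and 0.89 FPKM, and Thra exceeded it 84.1-fold in the case-labelled column and 96.7-fold in the control-labelled column. Vdr, the vitamin D receptor gene, was lower in the case-labelled column, at 12.7 FPKM against 14.05 FPKM in the control-labelled column (p = 0.611, the authors' deposited table). Pparg, the regulator of fat storage genes (chromosome 6, 115361221 to 115490401), showed the largest fold among the 8 lower receptors, at 1.77 FPKM in the case-labelled column and 2.79 FPKM in the control-labelled column. The difference was 1.57-fold (p = 0.232, the authors' deposited table), and all of it lay in NM_001127330, since NM_011146 was listed at 0 in both. Ppard, the widely expressed form, was at 3.93 FPKM in the case-labelled column and 3.54 FPKM in the control-labelled column, and Ppara, for fatty acid oxidation, at 0.846 and 0.557 FPKM.

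Receptors for oxysterols, bile acids and foreign compounds were represented by a single gene of substance. Nr1h2, for LXR beta, was at 27.1 FPKM in the case-labelled column and 26.3 FPKM in the control-labelled column (1.03-fold, p = 0.884, the authors' deposited table), 39.2-fold above Nr1h3, for LXR alpha, in the case-labelled column and 28.4-fold above it in the control-labelled column. The bile acid receptor FXR gene Nr1h4 was at 0.224 and 0.165 FPKM, and the xenobiotic receptor genes Nr1i2 (PXR) and Nr1i3 (CAR) stayed under 0.1 FPKM in both columns.

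REV-ERB and ROR proteins bind the same response elements as repressors and activators of the circadian clock. All 3 expressed genes of the group were lower in the case-labelled column, where 60.8% of all genes were higher. Nr1d2 was at 26.4 FPKM in the case-labelled column and 27.5 FPKM in the control-labelled column (p = 0.799, the authors' deposited table), and Nr1d1 at 16.3 and 17.2 FPKM (p = 0.813, the authors' deposited table). The Nr1d1 to Nr1d2 ratio was 0.62 in the case-labelled column and 0.624 in the control-labelled column. Rora, a ROR activator, was at 2.41 FPKM in the case-labelled column and 2.88 FPKM in the control-labelled column (p = 0.637, the authors' deposited table), and Rorb at 0.0316 and 0.0259 FPKM. The ratios of all 3 expressed genes were within 5 to 4.

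The orphan receptors of the NR2, NR4A, NR5A and NR6A groups held 8 expressed genes. Of these, 7 were higher in the case-labelled column, where 60.8% of all genes were higher. Nr5a1, or SF-1, which directs steroidogenesis and gonadal development (NM_139051; chromosome 2, 38692660 to 38714542), was at 53.4 FPKM in the case-labelled column and 49.5 FPKM in the control-labelled column (1.08-fold, p = 0.658, the authors' deposited table). Nr5a2, or LRH-1, which shares its binding element, was at 1.24 and 1.19 FPKM. Nr2f2, or COUP-TFII, a marker of stromal and Leydig precursor cells, was at 10.5 FPKM in the case-labelled column and 8.46 FPKM in the control-labelled column. Both Nr2f2 rows were higher, NM_009697 at 6.33 and 5.55 FPKM and NM_183261 at 4.22 and 2.91 FPKM. The noncoding gene B130024G19Rik shares the Nr2f2 locus on the other strand, at 2.31 and 2.05 FPKM, so part of its reads could be counted with it. Its relative Nr2f1 was at 0.371 and 0.25 FPKM.

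Nr2f6, a COUP-TF relative, was at 17.8 FPKM in the case-labelled column and 15.3 FPKM in the control-labelled column (1.16-fold, p = 0.473, the authors' deposited table). Nr6a1, or GCNF, the germ cell nuclear factor that represses pluripotency genes, summed to 7.59 FPKM in the case-labelled column and 6.80 FPKM in the control-labelled column, and both of its detected rows were higher there. That direction is opposite to the one of the summed germ cell markers, though among these Ddx4 was nearly level and Zbtb16 was higher. Nr4a1, an immediate early gene that responds to luteinizing hormone in Leydig cells, was at 9.01 and 8.25 FPKM (p = 0.714, the authors' deposited table), while Nr4a2 (0.538 and 0.54 FPKM) and Nr4a3 (0.608 and 0.544 FPKM) were under 1 FPKM. Of the testicular receptors, Nr2c2 (TR4) was at 9.47 FPKM in the case-labelled column and 9.60 FPKM in the control-labelled column, the only expressed gene of the orphan group that was lower, and Nr2c1 (TR2) at 3.37 and 2.92 FPKM. The Nr2c2 locus of the table also holds Mrps25 on the other strand, at 8.11 and 7.77 FPKM. Nr2e1 was at 0.716 and 0.77 FPKM and the photoreceptor gene Nr2e3 at 0.226 and 0.203 FPKM. Hnf4a, of liver and gut epithelium, was listed at 0 in the case-labelled column and at 0.0186 FPKM in the control-labelled column, and Hnf4g at 0 in both.

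The atypical NR0B members lack the DNA-binding zinc fingers and act as corepressors of other receptors. Nr0b1, or DAX1, a repressor of NR5A1 (NM_007430; chromosome X, 86191775 to 86195944), was lower in the case-labelled column, at 28.3 FPKM against 31.8 FPKM in the control-labelled column (1.13-fold, p = 0.542, the authors' deposited table). Nr5a1 was thus 1.89 times Nr0b1 in the case-labelled column and 1.56 times in the control-labelled column. Nr0b2, or SHP, was at 1.37 FPKM in the case-labelled column and 0.975 FPKM in the control-labelled column, the largest fold among the 19 higher receptors at 1.41-fold (p = 0.522, the authors' deposited table).

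**Figure D3:**
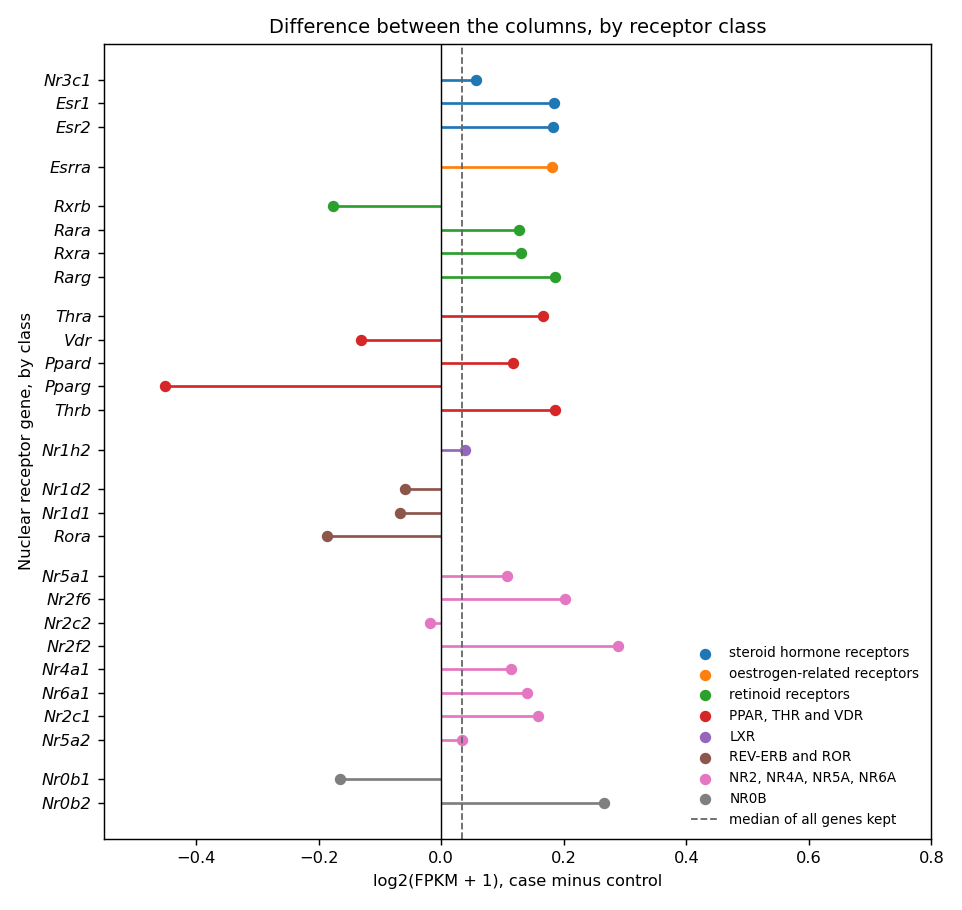
Each point is the difference in log2(FPKM + 1), case minus control, of a receptor gene with a mean of at least 1 FPKM, grouped and coloured by class, and the dashed line is the median of all 12664 genes at that level (0.03). Of the 27 points 19 lie right of 0, where 60.8% of all those genes were higher. The 3 REV-ERB and ROR genes all lie left of 0, and Pparg lies farthest left at -0.45.

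By class, the sums were 117 FPKM in the case-labelled column and 108 FPKM in the control-labelled column for PPAR, thyroid hormone and vitamin D receptors, and 115 and 104 FPKM for the orphan group. Retinoid receptors summed to 72.3 and 71.0 FPKM, and REV-ERB and ROR genes to 45.2 and 47.6 FPKM. The NR0B pair summed to 29.6 FPKM in the case-labelled column and 32.8 FPKM in the control-labelled column, the LXR, FXR, PXR and CAR genes to 28.1 and 27.5 FPKM, steroid hormone receptors to 17.4 and 16.2 FPKM, and oestrogen-related receptors to 6.58 and 5.75 FPKM. All 46 genes summed to 431 FPKM in the case-labelled column and 413 FPKM in the control-labelled column, 1.04-fold, and without Thra the fold was 1.02.

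Several receptor genes lie near each other, and paralogs in related sets had unlike levels. On chromosome 11 the Thra row ends 2823 bases before Nr1d1 (98767935 to 98775242), and Rara follows 162 kb further on. A related set stands on chromosome 14 with Rarb (16430840 to 16575210), Thrb (17660960 to 18038088) and Nr1d2 (18204056 to 18239106). The chromosome 11 genes summed to 134 FPKM in the case-labelled column and 123 FPKM in the control-labelled column, and the chromosome 14 genes to 27.9 and 28.7 FPKM, nearly all of it Nr1d2. Between the sets, the alpha genes Thra and Rara of chromosome 11 were the higher paralogs, while among the REV-ERB genes it was Nr1d2 of chromosome 14. A longer form of Thra transcript is known to run over Nr1d1 on the other strand, so the Nr1d1 level is uncertain without strand. On chromosome 2, Nr5a1 and Nr6a1 (38723374 to 38926461) stand 8831 bases apart, and both were higher in the case-labelled column, by 1.08-fold and 1.12-fold.

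Sequence around the annotated start, from 250 bases before to 50 after it, was taken from RefSeq (GRCm38.p6) for 42 of the 46 genes, on 63 windows. Thra, Nr5a1, Nr3c1 and Hnf4g were not matched. The windows of the 3 receptors of highest level among those matched are shown with that of Nr1d1, the paralog of Nr1d2. Each of these genes gave between 3.79% (Nr1d1) and 6.55% (Nr0b1) of the summed receptor FPKM in the case-labelled column. They are shown because many nuclear receptors bind the core hexamer AGGTCA. Capitals mark AGGTCA and the TATA box TATAAA on either strand. Nr0b1 lies at chrX:86191525-86191824 on the plus strand, Nr1d2 at chr14:18239057-18239356, Nr1h2 at chr7:44553916-44554215 and Nr1d1 at chr11:98775328-98775627, these 3 on the minus strand.
Nr0b1: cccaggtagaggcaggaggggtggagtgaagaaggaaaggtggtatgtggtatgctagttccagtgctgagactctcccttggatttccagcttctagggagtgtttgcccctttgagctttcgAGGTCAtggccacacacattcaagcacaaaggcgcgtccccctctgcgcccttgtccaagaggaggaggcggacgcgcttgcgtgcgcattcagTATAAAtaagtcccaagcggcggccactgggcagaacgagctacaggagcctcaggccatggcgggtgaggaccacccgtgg
Nr1d2: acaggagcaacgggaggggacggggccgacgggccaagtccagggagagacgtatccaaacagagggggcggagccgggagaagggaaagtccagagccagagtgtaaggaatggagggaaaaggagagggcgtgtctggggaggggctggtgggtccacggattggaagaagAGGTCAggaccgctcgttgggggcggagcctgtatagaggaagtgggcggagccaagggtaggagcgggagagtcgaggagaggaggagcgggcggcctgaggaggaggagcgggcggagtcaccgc
Nr1h2: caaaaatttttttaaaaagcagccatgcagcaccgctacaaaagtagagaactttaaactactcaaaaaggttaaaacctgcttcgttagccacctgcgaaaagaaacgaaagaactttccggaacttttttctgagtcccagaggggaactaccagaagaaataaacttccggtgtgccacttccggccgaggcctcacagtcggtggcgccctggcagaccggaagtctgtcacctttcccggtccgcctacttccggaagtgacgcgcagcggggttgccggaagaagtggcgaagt
Nr1d1: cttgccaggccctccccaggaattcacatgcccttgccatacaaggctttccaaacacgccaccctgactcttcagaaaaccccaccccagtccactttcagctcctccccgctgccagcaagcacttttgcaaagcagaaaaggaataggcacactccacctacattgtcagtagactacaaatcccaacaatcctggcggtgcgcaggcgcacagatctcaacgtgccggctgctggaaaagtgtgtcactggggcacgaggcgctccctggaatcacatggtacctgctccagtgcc

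The Nr0b1 window holds AGGTCA 126 bases before the start and TATAAA 32 bases before it, the Nr1d2 window holds AGGTCA 77 bases before the start, and neither motif is in the Nr1h2 and Nr1d1 windows. AGGTCA was found on either strand in 12 of the 63 receptor windows, belonging to 11 genes, and in 16.3% of all 32851 windows of the same length. Those genes were Nr0b1, Nr1d2, Nr1h4, Nr5a2, Nr6a1, Pparg, Rara, Rarg, Rxra, Rxrg and Thrb. The longer TCAAGGTCA, which contains AGGTCA, was in 0 receptor windows and in 0.423% of all. The E-box CACGTG was in 6 receptor windows of 5 genes and in 7.15% of all, though 2 of the 6 are overlapping Rara windows that hold the same copy, and TATAAA was in 8 receptor windows and in 13.6% of all. These matches describe letters in a window and do not show binding.

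Expressed receptors had more CG dinucleotides in these windows. The median was 19.3 per window over 24 genes averaging 1 FPKM or more, in a range of 2 to 53, and 11.8 over 18 genes under 1 FPKM, in a range of 2 to 52. Among all genes with windows the medians were 21 for 10117 genes at 1 FPKM or more and 4 for 7515 genes below, so the receptors under 1 FPKM had more CG dinucleotides than other genes at that level. Nr4a2, with 52 CG dinucleotides and a mean of 0.539 FPKM, and Nr2f2, with 2 and a mean of 9.50 FPKM, ran against that order in the plot of level against CG count.

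**Figure D4:**
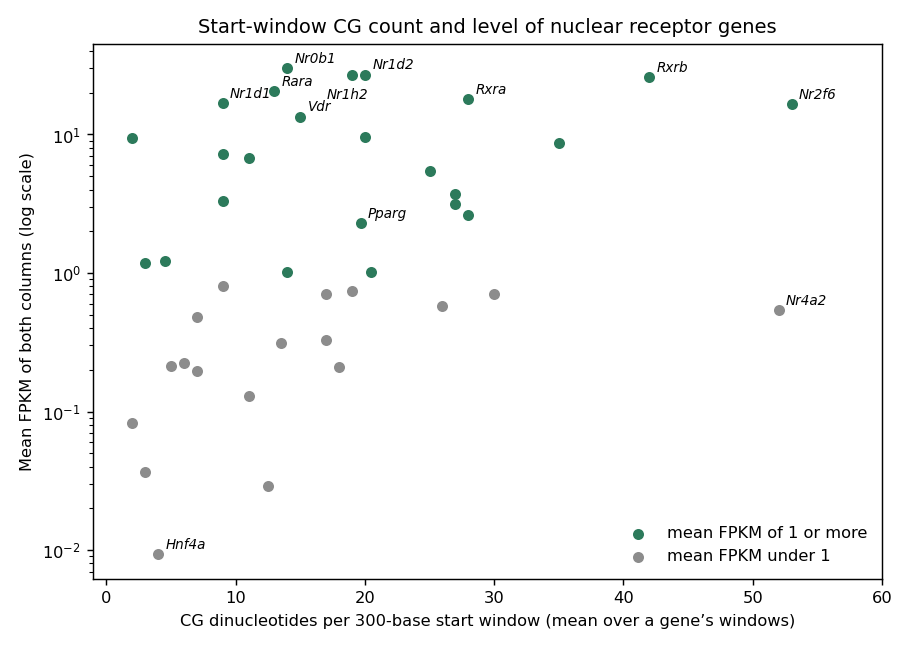
Each point is a receptor gene with a RefSeq start window and a mean FPKM above 0; the x axis is the number of CG dinucleotides per 300-base window, averaged over the windows of a gene, and the y axis its mean FPKM over both columns on a log scale. Green points (mean of 1 FPKM or more) reach 53 CG dinucleotides with a median of 19.3, and grey points (under 1 FPKM) have a median of 11.8, with a wide overlap.

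Coregulators and chaperones of the receptors were abundant and close to even. Of 38 listed genes 36 had a mean of at least 1 FPKM. Of these, 26 were higher and 10 lower in the case-labelled column, where 60.8% of all genes were higher. The median log2(FPKM + 1) difference was 0.06, against 0.03 over all genes. None of the 36 reached a ratio of 5 to 4, which 6.46% of all genes passed upwards and 4.45% downwards. Of the 28 with a usable p-value 0 had p under 0.05 in the authors' deposited table, where 1.28% of all such rows did. Tbl1x, of the NCoR corepressor complex, was at 44.8 FPKM in the case-labelled column and 39.7 FPKM in the control-labelled column (p = 0.487, the authors' deposited table). Ncoa7, a coactivator, was at 10.1 and 8.72 FPKM (p = 0.509 for its main row, the authors' deposited table), and Hsp90aa1, the inducible HSP90 that holds steroid receptors ready for ligand, was at 115 FPKM in the case-labelled column and 128 FPKM in the control-labelled column (p = 0.523, the authors' deposited table). Its constitutive relative Hsp90ab1 was at 824 and 764 FPKM.

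Known response genes of single receptors were described in 7 lists, with 64 genes averaging 1 FPKM or more, of which Per1 stands in both the glucocorticoid and the clock list, and 59 with a usable p-value. Of these 59, 0 passed a q-value of 0.05 and 1, Scd1, had p under 0.05, where 1.28% of all rows with status OK did, so the count is near the background. Scd1, a desaturase gene induced by LXR, was at 3.58 FPKM in the case-labelled column and 1.68 FPKM in the control-labelled column, 2.12-fold higher, for which the authors' deposited table has p = 0.0088 and q = 0.999966. Of the 7 LXR response genes analysed 6 were higher, against 60.8% of all genes, with a median difference of 0.12 against 0.03. Higher ones included Abcg1, a cholesterol exporter (5.02 and 3.99 FPKM), and Srebf1, a regulator of fatty acid synthesis (20.7 and 18.2 FPKM).

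Of 11 NR5A1 response genes 9 were higher and 2 lower in the case-labelled column, with a median difference of 0.23. Over all genes 60.8% were higher and the median was 0.03. The steroidogenic enzyme genes Cyp11a1 and Cyp17a1 were at 45.7 and 26.01 FPKM in the case-labelled column, against 32.4 and 17.8 FPKM in the control-labelled column (p = 0.0687 and 0.0706, the authors' deposited table). Insl3, the Leydig cell hormone of testis descent, was at 99.6 FPKM in the case-labelled column and 76.9 FPKM in the control-labelled column. The list shares 6 genes with the Leydig markers, which were all higher, and Nr5a1 itself differed by 1.08-fold.

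Of 9 retinoic acid response genes 6 were higher and 3 lower, where 60.8% of all genes were higher, with a median difference of 0.05. Stra8, the retinoic acid target of meiotic entry, was at 68.1 FPKM in the case-labelled column and 86.3 FPKM in the control-labelled column (p = 0.164, the authors' deposited table), and Cyp26a1, a retinoic acid clearing enzyme gene, at 1.19 and 2.28 FPKM (p = 0.129, the authors' deposited table). Meis1, a homeobox gene, went the other way, at 6.51 and 4.67 FPKM (p = 0.0647 for its main row, the authors' deposited table). Stra8 is also a germ cell marker of the list above, 7 of whose 8 genes were lower.

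PPAR response genes were higher in 9 of 10, against 60.8% of all genes, with a median of 0.08 against 0.03. Plin2, which coats lipid droplets, was at 22.2 FPKM in the case-labelled column and 17.3 FPKM in the control-labelled column. Acadl, of fatty acid oxidation, was at 43.9 and 36.9 FPKM, and Angptl4, a lipase inhibitor, at 15.3 and 13.8 FPKM. Glucocorticoid response genes were higher in 6 of 11, against the same 60.8% of all genes, with a median of 0.01. Sgk1, a kinase gene, was at 7.78 FPKM in the case-labelled column and 9.96 FPKM in the control-labelled column, Klf9 at 16.9 and 19.7 FPKM, and Zbtb16, which also marks undifferentiated spermatogonia, at 16.8 and 14.9 FPKM.

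Clock genes under REV-ERB and ROR control were higher in 8 of 13, near the 60.8% of all genes, with a median of 0.06. Per2 was at 2.35 FPKM in the case-labelled column and 1.78 FPKM in the control-labelled column, Per3 at 6.32 and 5.41 FPKM and Bhlhe40 at 6.75 and 5.23 FPKM. Oestrogen response genes, 4 of them analysed, had a median of 0.27 with 3 higher and 1 lower, where 60.8% of all genes were higher. The higher ones were Greb1, at 4.13 FPKM in the case-labelled column and 2.68 FPKM in the control-labelled column and with no usable p-value, Igf1, a growth factor, at 19.2 and 15.4 FPKM, and Cxcl12, a chemokine of stromal cells, at 41.6 and 35.3 FPKM. Ctsd, a lysosomal protease, was lower, at 177 and 182 FPKM. The genes named from these 4 lists, Greb1 aside, had p above 0.05 in the authors' deposited table.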

How the data were processed

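RNA was extracted with Trizol and sequenced by Illumina protocols, per the labels' protocols, and reads were aligned with TopHat2 version 2.0.9 to mm10, per the submitters' processing notes. The authors' table gives, per the file headers, FPKM in 2 pooled columns named case and control, and for each RefSeq transcript row a p-value and q-value, a status, a log2 ratio and a test statistic. The log2 ratio and the test statistic, another score of the authors, were not used. No program for the deposited values was named in the labels or notes. The column case was read as the Lin28a knockout libraries and control as the wild type ones, from the names alone.

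Receptor rows were found by gene name, and the RefSeq symbol of the accession was equal in all 72. Other genes were named by accession from a RefSeq table (GRCm38.p6). An accession listed on more than 1 row was used once, FPKM was summed per gene, those averaging 1 FPKM or more were analysed, and differences were taken of log2(FPKM + 1), which understates the change of low genes. Positions are the loci of the table, with 1 added to each start; a locus can span overlapping genes. Calls are the authors', at a q-value under 0.05, and a ratio of 5 to 4 was used to describe genes. No test over libraries could be run on pooled columns. Calculations used Python 3.11.15, pandas 2.3.3 and numpy 2.4.6 and were tested on simulated data. Receptors at a mean FPKM of at least 1 were named with values, the others by value or range, and of the coregulator and response lists the 3 genes of smallest p-value and any past that ratio with p under 0.05. The single marker genes, the low receptors with values, Greb1, Per1 and Hsp90ab1 were named outside that rule. The members and lists were chosen with earlier results of these data known. Alternatives were another pseudocount, filter, row choice, scaling, threshold and p-value adjustment.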

Additional observations from a re-analysis of the deposited data

How the results depend on the processing

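The receptor median of 0.12 stayed positive under all 8 alternatives, from 0.05 with no filter to 0.13 with a pseudocount of 0.1. The coregulator median of 0.06 did so under all 7, from 0.03 to 0.07. Over all genes the median was 0 with no filter and 0.037 with a pseudocount of 0.1. Receptors with higher values numbered 12 of 18 at a mean FPKM of at least 5 and 29 of 46 with no filter, as the number of genes implies. Of all genes, 60.4% and 47.3% were higher in these settings, the latter counting genes at 0 in both columns as not higher. By highest row there were 17 of 26, against 59.8% of all genes. Under both rescalings there were 19 of 27, against 50% by the median ratio and 52.1% by quantile normalization. Without rows of status FAIL, a setting chosen after seeing the data, there were 17 of 24, against 60.3%. Receptors past a ratio of 5 to 4 and higher, 3 in the report, numbered 0 at a mean of at least 5 and 8 with no filter, 1 after quantile normalization and 0 with the ratio on FPKM + 1. Those past it lower, 1 in the report, numbered 0, 6 and, by highest row, 2. The share of all genes past the ratio was not computed under these alternatives. The Lin28a difference of 1.32 was 1.04 with a pseudocount of 5. Of 135 recomputed receptor differences, 123 moved by no more than 0.1, 10 moved by more, and 2 reversed by highest row: Esr2 at -0.22 and Rara at -0.039, where the other rows outweigh the highest. Of the receptor rows with status OK, 0 passed the authors' unadjusted p under 0.05, where 1.28% of all such rows did, or their q under 0.10. The count was also 0 at 0.05 after their p-values were adjusted again here over rows with a mean FPKM of at least 1. The share of all rows was not computed for q under 0.10 or for the new adjustment. No paired analysis was possible because the deposited values are pooled over libraries, and for that reason no library could be left out. With depth unknown, no interval was given.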
